A study of Mus musculus with 32 samples.

Results

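The respiratory chain subunits described here are genes with symbols of the 5 oxidative phosphorylation complexes, encoded partly in the nucleus and partly on the mitochondrial genome. They were taken by symbol from protein-coding rows of 2 deposited count tables, which gave 102 genes of 56221 gene IDs, 89 nuclear and 13 mitochondrial. Complex I accounted for 37 nuclear and 7 mitochondrial members, complex II for 4 nuclear members, complex III for 8 and 1, complex IV for 21 and 3, and complex V for 19 and 2, with Ndufa4 placed in complex IV. The choice by symbol also took in Cox5b-ps, counted in complex IV, and Atp5s (Dmac2l in RefSeq), counted in complex V. Cox5b-ps shares 61.9% of its 50-base stretches with other genes, most with Cox5b. Whether either encodes a subunit was not examined. Assembly factors were left out of the members and are described as a separate list.

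RNA-seq of total RNA was available for 32 libraries in 8 groups of 4, 16 from each of 2 mouse lines. AML12 is a hepatocyte line, harvested at 17 h and 25 h after a control treatment or a treatment that the labels call DEX without spelling it out. HL-1 is a cardiomyocyte line, harvested at 16 h and 28 h in control medium derived from AML12 cells that had no DEX synchronization, or in conditioned medium (CM) from AML12 cells with it. Both HL-1 groups therefore received AML12 medium, and each line stands for 1 cell population. Separate cultures are not named for the 4 libraries of a group, so the spread between them may be technical.

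Complex I (NADH dehydrogenase), complex II (succinate dehydrogenase), complex III (cytochrome bc1) and complex IV (cytochrome c oxidase) pass electrons from fuel molecules to oxygen, and complex V (ATP synthase) uses the resulting proton gradient to make ATP. Each complex except complex II combines nuclear-encoded subunits, made in the cytosol and imported, with a core made on mitochondrial ribosomes. The mitochondrial mRNAs are cut from long transcripts of each strand of the circular genome, so their levels are set largely by RNA stability and processing, whereas every nuclear subunit has its own promoter. Hepatocytes and cardiomyocytes are both rich in mitochondria, and the adult heart uses isoforms of some complex IV subunits that liver lacks.

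Sequence bears on what the counts of some mitochondrial members can show. Of the 13 mitochondrial members, mt-Co2, mt-Co3, mt-Atp6, mt-Nd4l and mt-Nd3 share 98.0 to 100% of their 50-base words with transcripts of other annotated genes, which are nuclear copies of mitochondrial DNA. A read from such a stretch has more than 1 place to map, and how the deposited counts treated such reads is not given in the sources used here. The start of mt-Co2, subunit 2 of cytochrome c oxidase, and its copy Gm28661 are shown because they are the same over all 681 aligned bases of the 684-base gene, while the window of mt-Nd2, a complex I subunit, and its copy Gm13339 shows a pair that differs. Capitals mark the 4 positions at which the mt-Nd2 window and its copy have different bases, and all are reference sequence of GRCm38, read 5′ to 3′ on the strand given.
mt-Co2 (chrM:7013-7082, plus strand): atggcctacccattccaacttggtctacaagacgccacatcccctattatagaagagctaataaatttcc
Gm28661 (chr1:24615496-24615565, minus strand): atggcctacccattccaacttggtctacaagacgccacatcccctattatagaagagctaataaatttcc
mt-Nd2 (chrM:4570-4639, plus strand): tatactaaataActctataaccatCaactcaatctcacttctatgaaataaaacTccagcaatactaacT
Gm13339 (chr2:22590336-22590405, minus strand): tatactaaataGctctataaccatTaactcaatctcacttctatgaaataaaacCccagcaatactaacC

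The copies of mt-Co3 (783 of 783 aligned bases), mt-Atp6 (678 of 678) and mt-Nd4l (294 of 294) were also identical to the genes, and that of mt-Nd3 matched at 344 of 345 bases. By contrast, mt-Nd1, mt-Nd6, mt-Cytb and mt-Atp8 shared none of their 50-base words with another annotated gene, mt-Nd5 shared 7.6%, mt-Nd2 8.2%, mt-Co1 51.1% and mt-Nd4 62.2%. Only annotated transcripts were searched, so copies outside them would not be counted, and this holds for mt-Atp8 too.

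For nuclear members, the promoters carry the sequence of interest, because a regulator of mitochondrial biogenesis, NRF1, binds near the start of many respiratory genes. RefSeq promoters (GRCm38.p6) were matched for 71 of the 89 nuclear member IDs, which have 70 distinct promoters because both Atp5o IDs share 1, and the 250 bases upstream of each start were searched on both strands for the NRF1 core CGCANGCG, the ETS core CCGGAAG and the YY1 core AAGATGGCG. The 150 bases just upstream of the start are printed for 3 complex I subunits that fell with time in HL-1 cells (Ndufb10, Ndufa12, Ndufa8), chosen because they hold an NRF1 core, and for the 2 members that rose most there (Ndufv3, Cox7a1), with any NRF1 core in capitals. Of the 9 complex I members that fell in HL-1 control cells and had a promoter in the table, 4 held the core, these 3 and Ndufa5. Ndufa10, Ndufb8, Ndufs7, Ndufs8 and Ndufv1 did not.
Ndufb10 (chr17:24724424-24724573, minus strand): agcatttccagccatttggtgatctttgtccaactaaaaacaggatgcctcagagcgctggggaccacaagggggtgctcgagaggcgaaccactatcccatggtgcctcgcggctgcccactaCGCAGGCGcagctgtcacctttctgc
Ndufa12 (chr10:94198885-94199034, plus strand): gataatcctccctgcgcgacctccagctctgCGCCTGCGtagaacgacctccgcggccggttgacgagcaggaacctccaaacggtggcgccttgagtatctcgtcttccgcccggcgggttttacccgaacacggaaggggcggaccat
Ndufa8 (chr2:36049339-36049488, minus strand): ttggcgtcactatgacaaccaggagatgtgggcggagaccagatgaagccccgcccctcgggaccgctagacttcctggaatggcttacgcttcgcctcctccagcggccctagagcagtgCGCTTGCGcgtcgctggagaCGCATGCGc
Ndufv3 (chr17:31519965-31520114, plus strand): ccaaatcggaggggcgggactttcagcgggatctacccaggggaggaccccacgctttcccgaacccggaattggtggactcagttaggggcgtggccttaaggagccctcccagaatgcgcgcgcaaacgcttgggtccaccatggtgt
Cox7a1 (chr7:30184021-30184170, plus strand): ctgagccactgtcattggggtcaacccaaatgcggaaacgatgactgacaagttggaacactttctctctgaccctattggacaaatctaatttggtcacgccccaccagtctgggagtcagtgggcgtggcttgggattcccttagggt

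The NRF1 core was found in 16 of 70 nuclear member promoters (22.9%), beside 6.94% of the 27025 promoters in the table. The ETS core was found in 11 (15.7%, beside 7.05%) and the YY1 core in 0 (beside 0.607%). By complex, 8 of 32 complex I promoters held the NRF1 core, 2 of 3 in complex II, 0 of 5 in complex III, 1 of 14 in complex IV and 5 of 16 in complex V. The letters describe the sequence alone, and binding was not measured.

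Library totals ran from 15.03 to 17.47 M counts (M for 1e6) in AML12 and from 15.73 to 19.3 M in HL-1, where the CM libraries were deeper than the controls (means 18.6 and 16.3 M at 16 h). Hepatocyte markers reached a mean of 1 CPM (counts-per-million unit) for 6 of 9 listed genes in AML12, with Hnf4a at 205.3 and Alb at 1.43. In HL-1, 3 of 12 cardiomyocyte markers did (Des, Gja1 and Tnnt2), while Pln had 0 counts and Myh6, the adult atrial myosin, had 4 counts over 16 libraries. Fibroblast markers reached 1 CPM for 6 of 7 genes in HL-1, with Col3a1 at 1455. The HL-1 libraries thus lacked several genes that define the labelled cell type. Macrophage markers reached 1 CPM for 3 of 4 genes in AML12 and 2 of 5 in HL-1. Cd14 made up most of their level (means 181.2 and 27.83 CPM), while Ptprc stood at 0.13 and 0.01 CPM.

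The library farthest from its mates was in AML12 DEX cells. In AML12 DEX 17 h replicate 2 the mitochondrial members took 2.57% of counts, against 1.60 to 1.80% in the other 3 libraries of its group, and the nuclear members 0.7065% against 0.8447 to 0.8671%. Per gene, its counts differed from those of its 3 group mates by 13.6 to 18.1 times what counting noise gives (chi-square over its degrees of freedom), against 2.41 to 4.0 among those 3. Pairs within other groups of the series ranged from 2.06 to 16.6. Counts over members and lists that involve this group, and the changes of the members named with their values, are given with and without it. HL-1 control 16 h replicate 3 also differed from its mates, by 16.6, 8.05 and 9.78 times counting noise against 2.73 to 5.58 among the other 3. The counts of nuclear and mitochondrial members called with time in HL-1 control cells are given both ways too. Counts by complex, by promoter and by list, and calls shared between series, are given only with this library included.

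**Figure D1:**
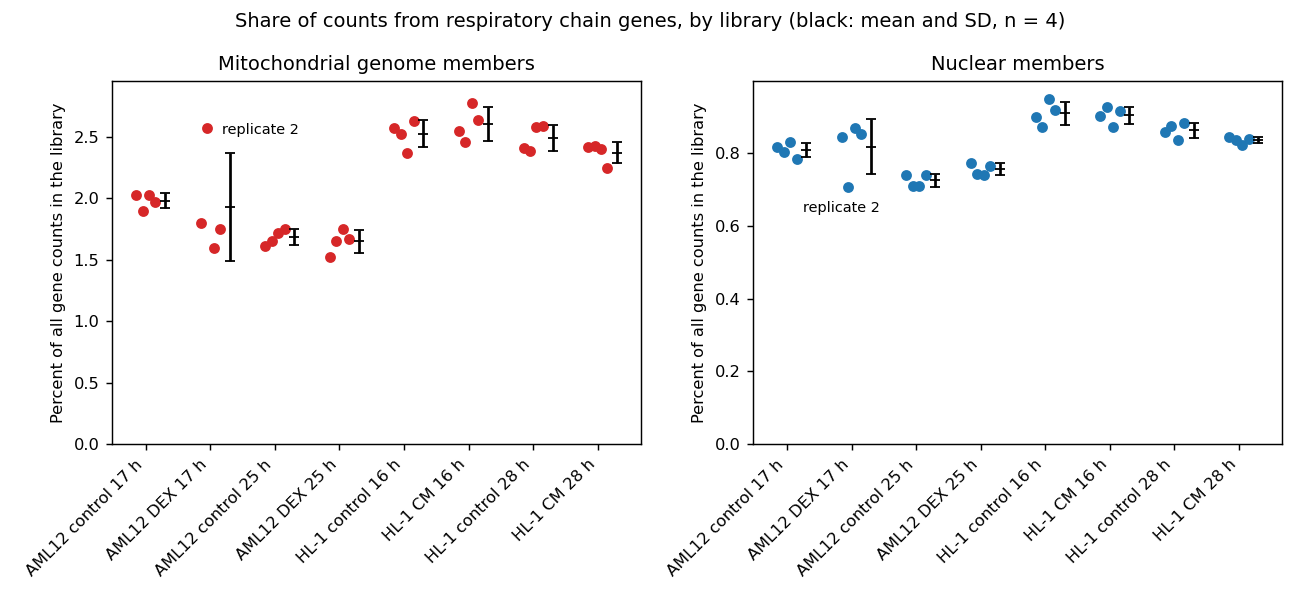
Percent of all gene counts in each library that came from mitochondrial genome members (left) and nuclear members (right); points are libraries and bars the mean and SD of 4. AML12 DEX 17 h replicate 2 is the highest AML12 library on the left at 2.57% and the lowest of its group on the right at 0.7065%.

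The 13 mitochondrial genes supplied more counts than the 89 nuclear ones in both lines. Mitochondrial members took 1.98% ± 0.0617 (SD, n = 4) of counts in AML12 control cells at 17 h and 1.69% ± 0.0628 at 25 h, and nuclear members 0.808% ± 0.0195 and 0.725% ± 0.0174. In HL-1 control cells the mitochondrial share was 2.53% ± 0.111 at 16 h and 2.49% ± 0.107 at 28 h. CPM is a share of each library, so less RNA of a gene per cell and fewer cells that express it cannot be told apart.

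A single transcript, mt-Co1, the catalytic subunit of complex IV, led the mitochondrial members in the counts as deposited. Its level was 10260 ± 1099 CPM in AML12 and 12440 ± 779 CPM in HL-1 (SD, n = 16), and the 2 tables were normalized separately. Per kilobase of exon it stood at 6642 CPM in AML12, followed by mt-Cytb of complex III at 2249, mt-Nd1 at 1705, mt-Nd5 at 958.8, mt-Nd2 at 879.5, mt-Nd4 at 518.2 and mt-Nd6, encoded on the opposite strand, at 408.1. The HL-1 order was the same except that mt-Nd1 (3847) lay above mt-Cytb (3065) and mt-Nd2 (1463) above mt-Nd5 (1277). The 5 genes with near-identical copies lay far lower, from 2.47 (mt-Nd3) to 64.6 CPM per kilobase (mt-Co2) in AML12 and from 3.85 (mt-Nd4l) to 72.2 (mt-Atp6) in HL-1. They are cut from the same transcript as mt-Co1, and their levels here and their rank beside mt-Co1 are therefore uncertain. mt-Co1 and mt-Nd4 share 51.1% and 62.2% of their 50-base words, so their levels carry part of the same limit. The copies themselves summed to 72.5 to 112 CPM per library in AML12 and 357 to 458 in HL-1. mt-Atp8, a short subunit that overlaps mt-Atp6, had 6 counts over all AML12 libraries and 54 over all HL-1 libraries.

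**Figure D2:**
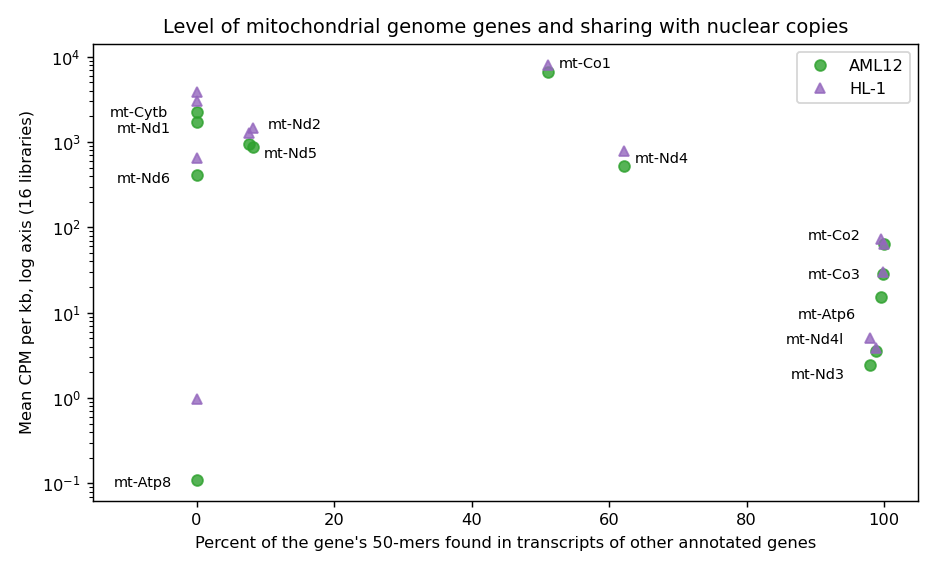
Mean level of each mitochondrial member (CPM per kilobase, log axis, 16 libraries a line) against the percent of its 50-base words found in other annotated genes. The 5 genes at 98.0% or more lie at 72.2 CPM per kilobase or less, whereas of the 8 others all but mt-Atp8 lie at 408.1 or more in both lines.

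Nuclear members were lower per length. The median complex I subunit stood at 29.3 CPM per kilobase in AML12 and 30.2 in HL-1, complex II at 50.3 in both, complex III at 61.5 and 45.9, complex IV at 45.4 and 49.1, and complex V at 26.2 and 38.2. The highest nuclear members per kilobase in AML12 were Cox8a (472), Atp5a1 (313), Cox6a1 (234) and Atp5b (213), and in HL-1 Atp5b (451), Atp5a1 (233), Cox6a1 (195) and Atp5c1 (146). Atp5a1 and Atp5b form the catalytic head of ATP synthase.

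Some members differed widely between the tables, whose annotation differs too, and these levels are set side by side without a test. Atp5o, the stalk subunit, had a mean of 45.7 CPM in AML12 and 2.34 in HL-1, and a second ID with that symbol had no counts in HL-1. Ndufs3, a core subunit of complex I, had 10.9 and 62.0 CPM, Cox8a had 292 and 86.8, Atp5g1, which encodes the membrane rotor subunit, 35.9 and 121, and Atp5b 902.5 and 1911. These 5 were chosen after their values were seen.

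Both lines used the widely expressed isoforms of complex IV. Cox4i1 made up 99.5% of the Cox4 level per kilobase in AML12 and 99.9% in HL-1, with Cox4i2 at 0.648 and 0.0676 CPM per kilobase. The striated muscle isoforms were nearly absent in HL-1 as in AML12. Cox6a2 had 71 counts over 16 HL-1 libraries and Cox8b had 1. Cox7a1, the muscle form of subunit 7a, made 4.68% of the Cox7a level in HL-1 and 6.04% in AML12. Ndufa4l2, the hypoxia-inducible relative of Ndufa4, had 1 count in AML12 and 224 in HL-1. Cox7b2 had 8 and 223 counts, and Cox6b2 had 5 and 4.

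Of the members, 81 nuclear and 12 mitochondrial genes in AML12 and 82 and 12 in HL-1 had enough counts to be tested. Those left out in both lines were mt-Atp8, Cox6a2, Cox6b2, Cox8b, Cox8c, Ndufb11b and the second Atp5o ID. Cox7b2 and Ndufa4l2 were also left out in AML12, and Cox4i2 in HL-1. The mitochondrial genes tested include those with near-identical nuclear copies, in all counts and medians below. Below, a gene is called higher or lower at a Benjamini-Hochberg adjusted p under 0.05 in edgeR's quasi-likelihood test, adjusted over all 14114 genes tested in AML12 or 14450 in HL-1, and changes are log2 fold changes ± SE. The median of all genes tested lay near 0 in each comparison.

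DEX against control in AML12 at 17 h moved a minority of nuclear members, mostly upward. With all libraries, 10 of 81 nuclear members rose (12.35%, beside 20.5% of all genes tested) and 4 fell (4.94%, beside 17.9%), with a median change of 0.04. None of the 12 mitochondrial members was called in either direction or reached an unadjusted p under 0.05, beside 23 nuclear members that did. Without DEX 17 h replicate 2, 34 nuclear members rose (42.0%, beside 20.1%) and 3 fell (3.70%, beside 18.9%), and 7 of 12 mitochondrial members fell while all 12 lay below 0. The median change was then 0.10 for nuclear and -0.23 for mitochondrial members. The 2 sets of counts differ by this 1 library, and what set it apart was not tested.

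Among the mitochondrial members, mt-Co1 stood at 10410, 9964, 10760 and 10470 CPM in control libraries 1 to 4 and at 9867, 13880, 8926 and 9302 CPM in DEX libraries 1 to 4. Replicate 2 lay above every control library and the other 3 below all of them. The change was 0.01 ± 0.0851 (adjusted p = 0.927, edgeR) with it and -0.16 ± 0.0402 (adjusted p = 0.0024) without it. The complex III gene mt-Cytb showed the same layout, with 2916, 2689, 2853 and 2768 CPM in control and 2526, 3895, 2393 and 2521 CPM in DEX libraries, and its change without replicate 2 was -0.18 (edgeR adjusted p = 0.000225). Without replicate 2 the other members called lower were mt-Nd1 (-0.24), mt-Nd2 (-0.23), mt-Nd4 (-0.28), mt-Nd5 (-0.19) and mt-Co3 (-0.28), while mt-Nd6 at -0.21 missed the threshold (edgeR adjusted p = 0.0753). mt-Co3 has a near-identical nuclear copy, so which gene its reads came from is uncertain.

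The complex I subunits Ndufa6 and Ndufs4 fell. Ndufa6, an accessory subunit of the LYR-motif family (GRCm38 chr15:82350140-82354322), had 126.3, 128.9, 133.2 and 131.7 CPM in control and 100.5, 99.86, 105 and 101.8 CPM in DEX libraries at 17 h. The groups did not overlap, and the fall was -0.35 ± 0.038 (edgeR adjusted p = 5.48e-08), the same size without replicate 2. Ndufs4, an accessory subunit that stabilizes the NADH-oxidizing arm and is mutated in Leigh syndrome (chr13:114287795-114388258), had 54.54, 53.17, 51.29 and 52.09 CPM in control and 43.36, 39.98, 43.08 and 46.66 CPM in DEX libraries (-0.29 ± 0.052, edgeR adjusted p = 9.15e-05). It too was lower in every DEX library, and its change was -0.25 without replicate 2. Ndufv3, of the NADH-binding module (chr17:31520115-31531331), rose from 104.7, 109.1, 107.1 and 102.7 CPM to 111, 125.1, 125.3 and 118 CPM (0.18, edgeR adjusted p = 0.00315, and 0.15 without replicate 2). Ndufs1, the large iron-sulphur core subunit, changed by 0.11 (edgeR adjusted p = 0.0348, and 0.12 without replicate 2) and lost the call in 12 of the alternatives tried.

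The strongest relative rise was that of Cox4i2, the inducible form of complex IV subunit 4 (chr2:152754173-152765037), at a very low level. It had 0.128, 0.325, 0.400 and 0.233 CPM in control (18 counts in all) and 0.786, 1.08, 1.16 and 1.23 CPM in DEX libraries (69 counts) at 17 h. Every DEX library lay above every control library, and the change was 1.93 ± 0.354 (3.80-fold, edgeR adjusted p = 0.000104) and 1.92 without replicate 2. Cox4i1, its common counterpart, was not called with all libraries.

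Members of complexes III, IV and V were also called at 17 h. Atp5d, the central stalk subunit delta, had 175.6, 164.9, 170.4 and 172 CPM in control and 204.4, 193.1, 222.5 and 210.4 CPM in DEX libraries, which did not overlap (0.28 ± 0.046, edgeR adjusted p = 2.22e-05, and 0.31 without replicate 2). Atp5g1 had 37.92, 37.65, 38.49 and 33.43 against 47.6, 38.21, 51.74 and 45 CPM, with replicate 2 alone inside the control range (0.31, edgeR adjusted p = 0.00133, and 0.38 without it). Atp5o (0.14, and 0.13 without replicate 2) and Atp5j (0.15 and 0.18) also rose and Atp5md fell (-0.22 and -0.11). In complex IV, Cox6a1 (0.19 and 0.23) and Cox8a (0.14 and 0.15) rose and Cox7a2l fell (-0.19 and -0.12), and in complex III Uqcr10 rose (0.20 and 0.28). Atp5j and Uqcr10 each lost the call in 11 of the alternatives tried and Atp5md in 5, among them the one without DEX 17 h replicate 2 for Atp5md. Atp5o lost it with total counts, without the low-count filter and without control 17 h replicate 3, Cox8a with total counts and without control 17 h replicate 4 or DEX 17 h replicate 3, and Cox7a2l with only the compared groups. No complex II member was called. Uqcrq, a small complex III subunit named after its values were seen, shows what replicate 2 does to many nuclear members: it had 126.2, 128, 129.4 and 127.5 CPM in control and 152.7, 103.8, 182.2 and 161.4 CPM in DEX libraries, and its change without replicate 2 was 0.37.

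**Figure D3:**
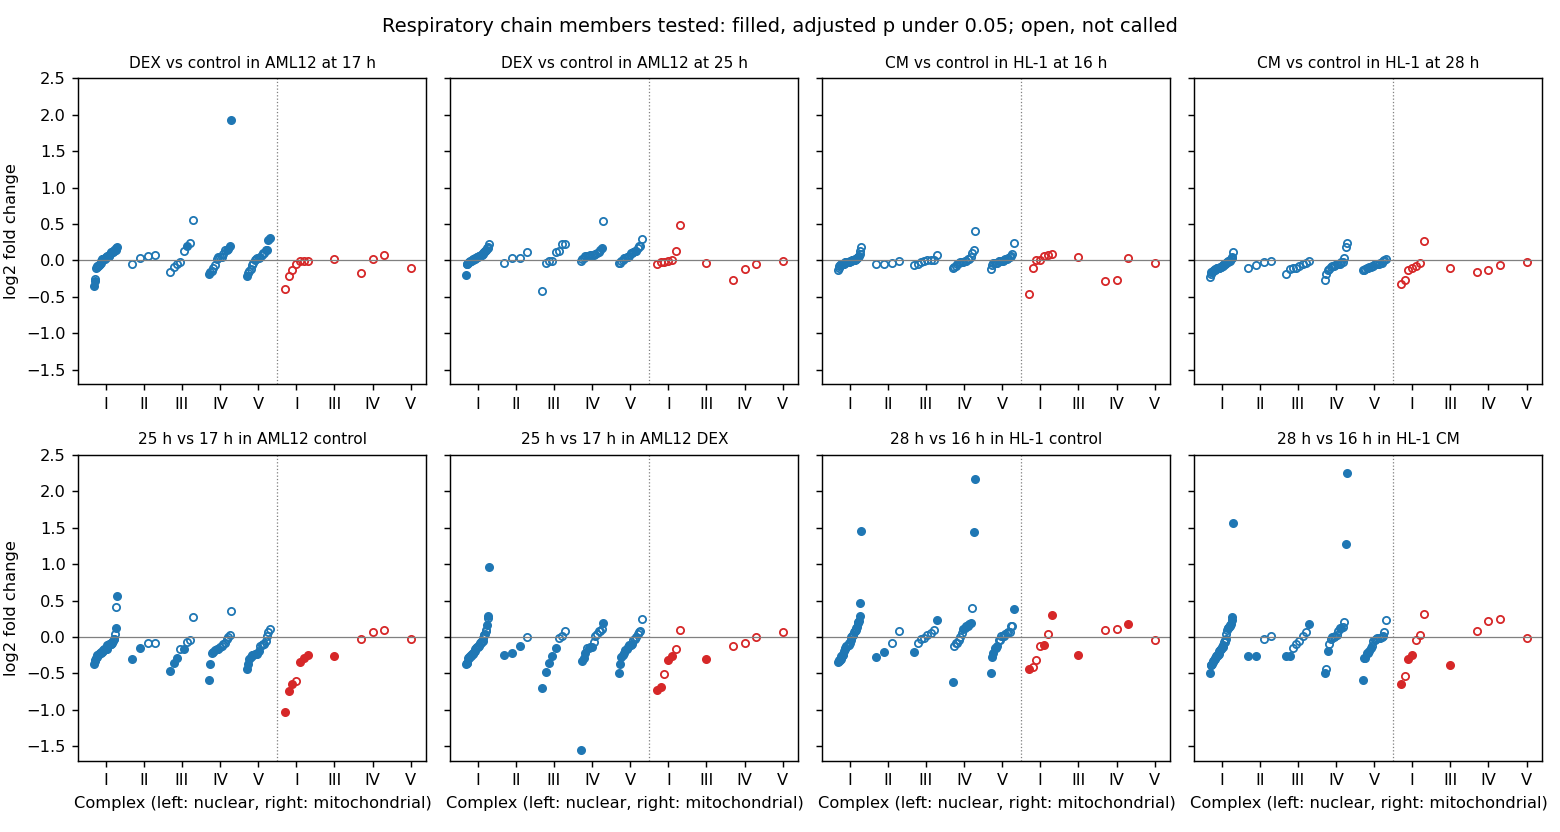
log2 fold change of each tested member in 8 comparisons, by complex, with nuclear members left of the dotted line and mitochondrial members right of it; filled points passed an adjusted p under 0.05. The 4 comparisons in time (lower row) hold most filled points, and both CM panels hold none.

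Other genes of mitochondrial function were counted by list at 17 h, beside the 20.5% of all genes tested that rose and the 17.9% that fell (20.1% and 18.9% without DEX 17 h replicate 2). Of the mitochondrial stress response genes 9 of 13 rose and 1 fell (11 and 1 without that library), with Shmt2 (0.90), Atf4 (0.63) and Mthfd2 (0.63) among those that rose. Of the genes for mitochondrial DNA and RNA handling 12 of 35 rose and 1 fell (10 and 0), and of the biogenesis regulators 7 of 18 rose and 2 fell (6 and 3), with Ppara, a nuclear receptor of fatty acid oxidation, at 3.00. Of the mitochondrial ribosomal proteins, a list added after values were seen, 15 of 77 rose and 3 fell (25 and 2). The tricarboxylic acid cycle had 4 of 14 higher and 0 lower (5 and 0), other respiratory chain genes such as Cycs (0.36) 4 of 13 and 0 (6 and 0) and coenzyme Q synthesis 3 of 13 and 1 (the same without that library). Complex I assembly had 2 of 16 higher and 1 lower (the same), complex IV assembly 2 of 22 and 1 (2 and 0), and assembly of complexes II, III and V 3 of 14 and 2 (3 and 0). With all libraries the shares higher of the ribosomal proteins, coenzyme Q synthesis and the assembly lists lie near or below that of all genes. Beside these, the hepatocyte markers summed to 280 to 294 CPM in DEX and 382 to 419 in control libraries at 17 h, and the macrophage markers to 115 to 124 and 173 to 182. The hepatocyte sum was mostly Hnf4a and Apob (means 205.3 and 154.5 CPM in AML12), and its members did not move together. Without DEX 17 h replicate 2, Hnf4a fell (-0.52) while Apoa1 (1.42) and Ttr (1.70) rose at low levels. The macrophage sum was mostly Cd14. The part of these markers in the result was not tested.

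At 25 h few members differed between DEX and control cells. 2 of 81 nuclear members rose (beside 6.79% of all genes tested) and 1 fell (beside 4.96%), with a median of 0.06. No mitochondrial member was called by edgeR, and 1 reached an unadjusted p under 0.05. Ndufa6 was again lower, at 145.3, 137.7, 139.3 and 146.3 CPM in control and 131, 123.1, 121.2 and 121.7 CPM in DEX libraries (-0.19 ± 0.038, edgeR adjusted p = 0.000818), and the groups did not overlap. Cox8a, the widely expressed form of a small complex IV subunit, had 282.8, 256.7, 249.2 and 258 CPM in control and 301.1, 289.6, 283.9 and 299.5 CPM in DEX libraries, all of them higher (0.17 ± 0.043, edgeR adjusted p = 0.0107). Atp5pb, of the peripheral stalk of ATP synthase, rose by less (0.13, edgeR adjusted p = 0.0406) and lost the call when any 1 library of these groups was left out, while Cox8a lost it without 5 of the 8. Of the lists, mitochondrial stress response had 3 higher and 1 lower of 13, ribosomal proteins 1 and 2 of 77, DNA and RNA handling 0 and 2 of 35, and biogenesis regulators 2 and 1 of 18.

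The difference between the DEX effects at 25 h and 17 h was tested directly. It was called for 5 nuclear members, 2 upward and 3 downward, beside 16.2% of all genes tested, and for 0 mitochondrial members. The effect was smaller at 25 h for Cox4i2 (difference -1.91 ± 0.57, edgeR adjusted p = 0.0224), whose 4 DEX libraries at 25 h had 0.704, 0.346, 0.186 and 0.183 CPM against 0.270, 0.364, 0.431 and 0.347 CPM in control libraries. These overlapped fully. The fall of Ndufs4 at 17 h was not repeated at 25 h, with 47.37, 46.66, 51.86 and 50.68 CPM in control and 50.64, 48.89, 49.44 and 45.91 CPM in DEX libraries (difference 0.27, edgeR adjusted p = 0.0111). Ndufa6 (0.16) and Ndufv3 (-0.21) were called with adjusted p of 0.0435 and 0.0321 in edgeR. Ndufa6 lost the call without any 1 of 12 libraries, DEX 17 h replicate 2 among them, with the replicate block and without the low-count filter. Ndufv3 lost the call without any 1 of 7, with total counts and without that filter. Without DEX 17 h replicate 2 the differences were -1.91 for Cox4i2, 0.23 for Ndufs4 and -0.19 for Ndufv3, all called, and 0.14 for Ndufa6. Cox4i2 lost it without AML12 control 17 h replicate 1 or control 25 h replicate 3 (edgeR adjusted p from 0.0501 to 0.0557, DESeq2 included).

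Uqcrc1, a core subunit of complex III, was called in this difference (-0.98 ± 0.32, edgeR adjusted p = 0.0376) but scattered widely within groups. Its control libraries had 98.88, 66.73, 40.83 and 39.71 CPM at 17 h and 41.11, 72.2, 76.83 and 105.5 CPM at 25 h. Its DEX libraries had 78.44, 78.88, 113.5 and 89.44 CPM at 17 h and 57.33, 48.49, 59.07 and 57.26 CPM at 25 h. The call was lost in DESeq2, with the replicate block and without any 1 of 10 libraries. Without DEX 17 h replicate 2, the difference was called for 1 nuclear member upward (beside 8.68%) and 6 downward (beside 9.95%), and for mt-Nd1 (0.23) and mt-Nd4 (0.27) upward.

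Between 17 h and 25 h, respiratory chain members fell in AML12 control cells. 36 of 81 nuclear members fell (44.4%, beside 21.4% of all genes tested) and 2 rose (beside 22.1%), with a median of -0.16. In 32 of those tested the 25 h libraries all lay below the 17 h libraries, a count that was not made over all genes. Of the mitochondrial members 7 of 12 fell (58.3%) and none rose, with a median of -0.27. The falls covered all complexes: 14 of 36 nuclear members of complex I, 2 of 4 of complex II, 4 of 8 of complex III, 6 of 15 of complex IV and 10 of 18 of complex V. Whether the nuclear and mitochondrial sets differed from each other was not tested. Macrophage markers, mostly Cd14, summed to 173 to 182 CPM at 17 h and 210 to 231 at 25 h in these cells. Their part in the result was not tested.

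The mitochondrial fall was uneven along the genome. mt-Nd1, the first subunit gene after the ribosomal RNAs, had 2257, 1884, 2076 and 1949 CPM at 17 h and 1174, 1153, 1308 and 1249 CPM at 25 h in control cells. The groups were far apart, at -0.74 ± 0.116 (edgeR adjusted p = 1.58e-05). mt-Nd2, which follows it, had 1187, 1071, 1135 and 1106 and then 674.7, 689.2, 761.2 and 755.9 CPM (-0.64, edgeR adjusted p = 3.36e-05). mt-Co1, next in order, had 9813, 10220, 10370 and 10540 CPM at 25 h, which overlapped its 17 h values (-0.02 ± 0.0851). The downstream genes mt-Nd4 (-0.29), mt-Nd5 (-0.25) and mt-Cytb (-0.25) and the opposite-strand mt-Nd6 (-0.34) fell by intermediate amounts. Of these, mt-Cytb, mt-Nd5 and mt-Nd6 lost the call in DESeq2 and without control 17 h replicate 1 or control 25 h replicate 1. mt-Cytb and mt-Nd5 also lost it without control 25 h replicate 2, and mt-Cytb without control 17 h replicate 3. As a result mt-Co1 rose from 53.6% ± 0.867 to 60.0% ± 0.601 of mitochondrial member counts. Just upstream of mt-Nd1, the large ribosomal RNA mt-Rnr2 fell by 1.15 on the log2 scale while mt-Rnr1 stood at -0.01. Of the 5 genes with near-identical copies 1 was called, mt-Nd3 at -1.03.

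DEX cells were compared across the same hours, and this series shares no library with the control series. 34 of 81 nuclear members fell (42.0%, beside 28.2%) and 4 rose (beside 27.8%), with a median of -0.13, and 5 of 12 mitochondrial members fell. 27 nuclear members fell in both, which is 75.0% of those that fell in control cells and 79.4% of those in DEX cells, and mt-Cytb, mt-Nd1, mt-Nd2, mt-Nd5 and mt-Nd6 fell in both. How often all genes tested fell in both was not counted. Without DEX 17 h replicate 2, 55 nuclear members fell (beside 29.1%) and 4 rose (beside 27.8%), and of the mitochondrial members only mt-Nd1 (-0.50), mt-Nd2 (-0.48) and mt-Cytb (-0.12) were then called. Of those 55, 33 also fell in control cells (91.7% of the control members that fell and 60.0% of the DEX ones). From 17 h to 25 h in DEX cells the hepatocyte markers went from 280 to 294 CPM to 386 to 410, and the macrophage markers from 115 to 124 CPM to 243 to 254, and their part in the result was not tested. mt-Nd1 had 1826, 2914, 1548 and 1843 CPM at 17 h and 1143, 1194, 1328 and 1258 CPM at 25 h in DEX cells, so all 4 later libraries were lower with or without replicate 2.

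**Figure D4:**
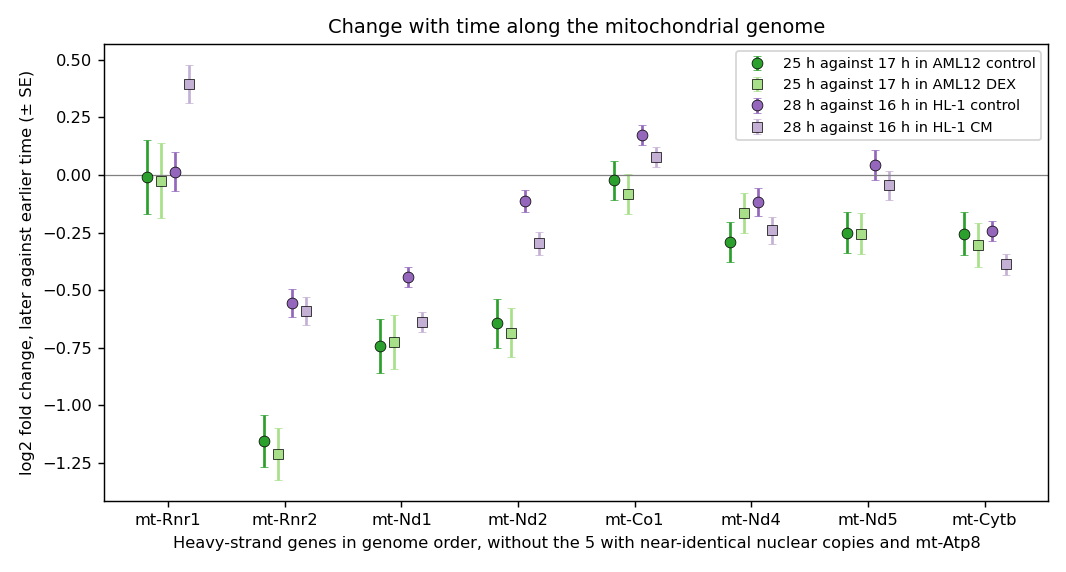
log2 fold change with time (± SE) of mitochondrial heavy-strand genes in genome order, in control and treated cells of both lines. mt-Rnr2, mt-Nd1 and mt-Nd2 lie below mt-Co1 in all 4 series, and mt-Co1 lay near 0 in AML12 and at 0.17 in HL-1 control cells.

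Several of the nuclear members that fell are given by library. Atp5g1, the rotor subunit, went from the control values given above at 17 h to 29.04, 28.21, 26.33 and 30.2 CPM at 25 h (-0.37, edgeR adjusted p = 0.00031), and in DEX cells to 32.33, 34, 29.94 and 33.88 CPM (-0.49, edgeR adjusted p = 4.16e-06, and -0.57 without DEX 17 h replicate 2). Uqcrq fell to 98.79, 91.92, 84.28 and 95.11 CPM in control cells (-0.47, edgeR adjusted p = 0.000495), below every 17 h library. Sdhb, the iron-sulphur subunit of complex II, had 77.51, 73.88, 81.95 and 76.28 CPM at 17 h and 67.32, 60.49, 57.7 and 66.24 CPM at 25 h (-0.30, edgeR adjusted p = 0.000198). These ranges were separate. Ndufa4 (-0.38), Ndufb7 (-0.38), Uqcr11 (-0.36) and Atp5k (-0.43) fell too in control cells. In DEX cells Atp5k stood at -0.02 (-0.13 without replicate 2), and the difference between the series was not called.

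Ndufb2 and Ndufa6 rose in both series. Ndufb2, a membrane-arm subunit, had 3.21, 3.57, 2.57 and 3.61 CPM at 17 h and 4.72, 4.13, 5.04 and 5.15 CPM at 25 h in control cells (0.56 ± 0.14, edgeR adjusted p = 0.00214). Every later library was higher, and in DEX cells the change was 0.96 (edgeR adjusted p = 3.12e-06, and 0.85 without replicate 2). Ndufa6 changed by 0.13 in control and 0.29 in DEX cells (0.27 without replicate 2), from the values given above. Its low 17 h level with DEX and the later rise share the same 4 libraries.

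The lists were counted with time beside 21.4% of all genes lower and 22.1% higher in control cells, and 28.2% and 27.8% in DEX cells. Mitochondrial ribosomal proteins had 30 of 77 lower and 10 higher in AML12 control cells and 38 and 7 in DEX cells (42 and 6 without DEX 17 h replicate 2). DNA and RNA handling had 7 lower and 13 higher of 35 in control cells and 11 and 7 in DEX cells (11 and 6). The tricarboxylic acid cycle had 7 of 14 lower in control and 6 in DEX cells (9 without that library) and 0 higher in either, with Cs at -0.24 and -0.39. Other respiratory chain genes had 5 and 7 of 13 lower (8) and 1 higher in each, with Cycs at -0.30 and -0.52. Complex I assembly had 3 and 6 of 16 lower (9) and complex IV assembly 5 and 4 of 22 (9), with the control shares near that of all genes. Members of both lists also rose. In complex IV assembly Cox17, a copper chaperone, rose by 1.68 and 1.79. In complex I assembly Tmem126b rose by 0.35 in DEX cells without DEX 17 h replicate 2. Stress response genes had 6 and 9 of 13 lower (10), and hepatocyte marker sums in control cells overlapped between 17 h and 25 h (367 to 404 CPM at 25 h).

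CM against control medium in HL-1 cells gave no called member at either time. At 16 h 0 of 82 nuclear and 0 of 12 mitochondrial members were called by edgeR (beside 2.03% of all genes tested), with 0 nuclear and 1 mitochondrial member at an unadjusted p under 0.05 and nuclear changes from -0.13 to 0.40. At 28 h again none was called (beside 1.92%), with 14 nuclear and 4 mitochondrial members at an unadjusted p under 0.05. There 73 of 82 nuclear and 11 of 12 mitochondrial members lay below 0. Their medians were -0.07 and -0.11, beside -0.0106 for all genes tested. The CM libraries lay wholly below the control libraries for 11 nuclear members and 1 mitochondrial member. Over all genes, the shares below 0, without overlap or at an unadjusted p under 0.05 were not computed. Whether these counts are unusual for the members therefore cannot be read from them. The difference between the effects at 28 h and 16 h was called for none (beside 0.277%), with 5 nuclear and 4 mitochondrial members at an unadjusted p under 0.05. DESeq2 called none in these 3 comparisons.

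The mitochondrial member whose groups separated at 28 h was mt-Nd6, with 387.6, 349.5, 439 and 366.8 CPM in control and 321.6, 337.6, 295.1 and 330.7 CPM in CM libraries. All CM values were lower, and the change of -0.26 ± 0.0728 missed the threshold (edgeR adjusted p = 0.0622). It passed without HL-1 control 28 h replicate 2, as it did with replicate number as a block, without the low-count filter and with these 2 groups alone (adjusted p from 2.26e-08 to 0.0434). mt-Nd1 had 3137, 3076, 3158 and 3192 CPM in control and 3009, 3083, 2730 and 2621 CPM in CM libraries at 28 h. Its groups overlapped, at -0.14 ± 0.0436 (edgeR adjusted p = 0.135), and it passed without CM 28 h replicate 2. The CM libraries were deeper than the controls at 28 h as well (means 18.2 and 16.6 M). Macrophage markers, mostly Cd14, summed to 30.0 to 33.5 CPM in them against 39.2 to 41.6. The part of either was not tested. Of the lists, the 1 gene called at 16 h was Coq10b of coenzyme Q synthesis (0.32), and at 28 h Coq10b (-0.38), Mthfd2 (-0.18) and Gpd2 (-0.19) were called.

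Between 16 h and 28 h, HL-1 control cells changed their members in both directions. 20 of 82 nuclear members fell (24.4%, beside 31.3% of all genes tested) and 13 rose (15.85%, beside 31.5%), with a median of 0.01. Without HL-1 control 16 h replicate 3, 21 fell and 15 rose in control cells, with Cox4i1 and Ndufs7 among the calls lost and Ndufa4 among those gained. In CM cells 29 fell (35.4%, beside 32.9%) and 11 rose (13.4%, beside 32.6%), with a median of -0.07. All 20 that fell in control cells fell in CM cells, which is 69.0% of those in CM cells, and 9 rose in both. How often calls of all genes were shared between these series was not counted. By complex in control cells, complex I had 5 higher and 10 lower of 36, complex II 0 and 2 of 4, complex III 1 and 1 of 8, complex IV 6 and 1 of 16, and complex V 1 and 6 of 18. The share higher in complex IV and the shares lower in complexes I and V lay near those of all genes tested. The complex IV counts also shift without HL-1 control 16 h replicate 3, as Cox4i1 and Ndufa4 belong to it. No pattern by complex is read from these counts, and a contrast between complexes was not tested. Of the mitochondrial members 2 rose and 3 fell in control cells (2 and 4 without control 16 h replicate 3, with mt-Nd4 added), and 0 rose and 4 fell in CM cells.

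Cox7a1, Ndufv3 and Ndufa4l2 changed most of the members tested in HL-1 cells with time. Ndufv3 had 32.48, 32.03, 33.29 and 32.18 CPM at 16 h and 84.79, 90.71, 84.85 and 95.88 CPM at 28 h in control cells. The rise of 1.45 ± 0.051 (2.74-fold, edgeR adjusted p = 5.42e-18) was matched in CM cells, from 29.99, 29.63, 32.28 and 33.12 to 94.49, 87.8, 92.98 and 93.52 CPM (2.95-fold). In AML12 cells the same gene fell with time, by 0.16 on the log2 scale in control cells. Cox7a1 (chr7:30184144-30186078) rose from 0.626, 0.438, 0.452 and 0.374 CPM (31 counts) to 2.03, 2.504, 2.06 and 2.08 CPM (143 counts) in control cells (2.17 ± 0.265, edgeR adjusted p = 9.59e-08) and by 2.25 in CM cells. The time groups did not overlap in either. Even at 28 h its level stayed far below that of Cox7a2. Ndufa4l2 rose likewise, from 0.228, 0.501, 0.258 and 0.561 CPM to 0.739, 0.814, 1.39 and 1.26 CPM in control cells (1.44, edgeR adjusted p = 0.000692), again without overlap.

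**Figure D5:**
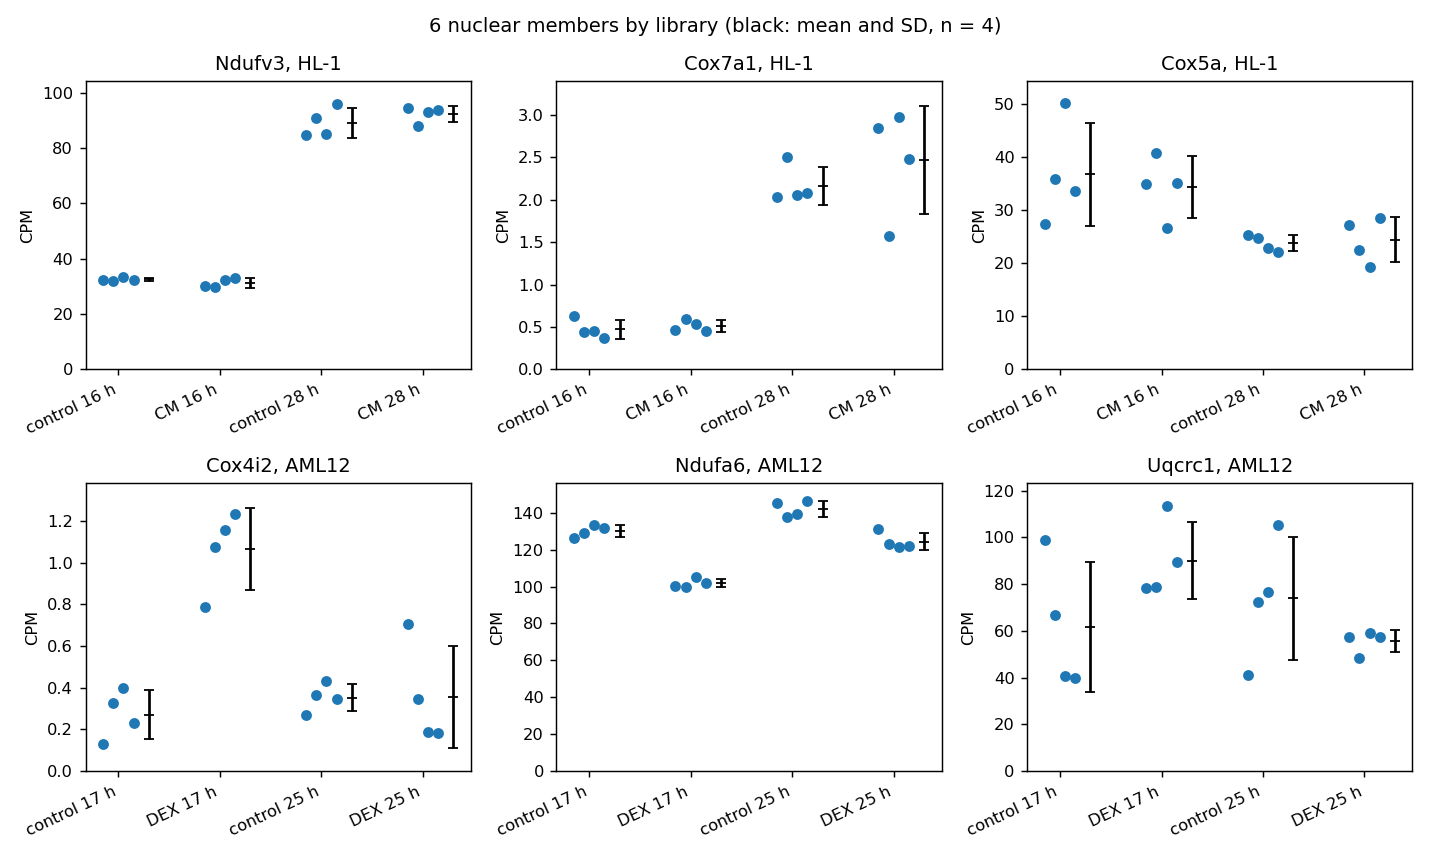
CPM of 6 nuclear members in every library of the line named, with the mean and SD of 4. Ndufv3 and Cox7a1 separate the 2 times in HL-1, Cox4i2 and Ndufa6 separate DEX from control in AML12 at 17 h, and Uqcrc1 and Cox5a scatter widely within groups.

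Other members that rose in HL-1 control cells were Ndufa13 (0.47, with 26.74, 24.52, 33.49 and 30.56 CPM at 16 h and 38.12, 42.63, 36.76 and 42.4 CPM at 28 h), a complex I subunit also known as GRIM-19, and Uqcrh (0.23), Cox7a2l (0.19), Cox6c (0.17), Cox7b (0.16) and Cox4i1 (0.11). The Cox4i1 call was lost without the low-count filter and without control 16 h replicate 2 or 3 or control 28 h replicate 2 (edgeR adjusted p up to 0.118), and that of Cox7b without control 16 h replicate 2 (0.0578). Among those that fell, Atp5g1 had 129, 134.4, 153.2 and 159.5 CPM at 16 h and 96.62, 103.6, 102.1 and 108.3 CPM at 28 h (-0.49, edgeR adjusted p = 2.64e-08), with no overlap, and CM cells gave -0.59. Atp5b, the most abundant nuclear member of the line, went from 1958, 1955, 2151 and 2062 to 1816, 1864, 1783 and 1865 CPM (-0.15, edgeR adjusted p = 0.0012). The complex IV subunit Cox5a had 27.42, 35.85, 50.26 and 33.67 CPM and then 25.43, 24.85, 22.99 and 22.11 CPM, a fall of 0.62 ± 0.142 on the log2 scale (edgeR adjusted p = 0.000459) from a scattered start.

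The complex I subunits whose promoters are printed above fell by modest amounts. Ndufb10 had 79.75, 82.27, 94.08 and 86.43 CPM at 16 h and 65.21, 71.86, 67.41 and 73.51 CPM at 28 h in control cells (-0.30, edgeR adjusted p = 3.36e-05), and 62.86, 62.81, 62.92 and 61.05 CPM in CM cells at 28 h (-0.49 with time). All later values were below all earlier ones. Ndufa8 had 77.53, 77.89, 88.4 and 84.06 and then 67.37, 71.05, 66.86 and 72.19 CPM (-0.24), and Ndufa12 changed by -0.14 in control and -0.30 in CM cells. Ndufa8 and Ndufa12 were named after their values were seen. An NRF1 core lay in 5 of 18 matched promoters of the nuclear members that fell in HL-1 control cells and in 0 of 10 of those that rose, and in 11 of 33 of those that fell in AML12 control cells with time. Beside the 16 of 70 over all nuclear members, these are descriptions.

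In HL-1 cells, too, the mitochondrial genes moved apart from each other with time. mt-Nd1 had 4330, 4310, 4042 and 4398 CPM at 16 h and the 28 h values given above in control cells, a fall of 0.44 ± 0.0437 on the log2 scale (edgeR adjusted p = 2.31e-09), and fell by 0.64 in CM cells. mt-Cytb fell by 0.24 and 0.39, and mt-Nd2 by 0.11 (edgeR adjusted p = 0.0447) and 0.30. The mt-Nd2 call in control cells was lost in DESeq2 and without control 16 h replicate 4 or control 28 h replicate 1, 2 or 3. mt-Co1 rose in control cells, from 11920, 11770, 11020 and 12270 to 12600, 12780, 13840 and 13770 CPM (0.17 ± 0.0422, edgeR adjusted p = 0.000854), and had 0.08 in CM cells. mt-Nd6 rose in control cells, from 296.4, 302.6, 322.8 and 335.3 CPM to the values given above (0.30, edgeR adjusted p = 0.00102), and stood at 0.03 in CM cells. mt-Co1 took 46.4% ± 0.524 of mitochondrial member counts at 16 h and 52.9% ± 0.337 at 28 h. The upstream mt-Rnr2 fell by 0.56 and 0.59 on the log2 scale in the 2 series.

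12 nuclear members fell with time in control cells of both lines, 33.3% of those in AML12 and 60.0% of those in HL-1: Atp5g1, Atp5g3, Atp5pb, Cox5a, Ndufa12, Ndufa5, Ndufb10, Ndufb8, Ndufs1, Ndufs8, Sdhb and Sdhd. mt-Cytb, mt-Nd1 and mt-Nd2 fell in both as well. Cox7a1, Cox7b, Ndufb11, Ndufv3 and mt-Nd6 were called in opposite directions. In AML12 control cells Cox5a, Sdhd and Cox7a1 each lost the call without any 1 of 6 libraries (edgeR adjusted p up to 0.209, 0.128 and 0.145). The time points differ between the lines, so the values stand side by side. The overlap of calls was not counted over all genes, so whether it is unusual for the members cannot be read from these counts.

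The other mitochondrial gene lists in HL-1 cells were counted with time beside 31.3% of all genes lower and 31.5% higher in control cells, and 32.9% and 32.6% in CM cells. Of 77 mitochondrial ribosomal proteins 56 fell and 2 rose in control cells, with a median of -0.39, and 62 fell and 2 rose in CM cells, with Mrpl12 at -1.02. Of 35 DNA and RNA handling genes 24 and 25 fell and 1 rose in each series, with Lrpprc, which stabilizes mitochondrial mRNA, at -0.79 and -0.90 and Tbrg4 at -0.96 in both. Complex I assembly had 10 and 11 of 16 lower and 0 higher, with Ndufaf4 at -1.27 and -1.34, assembly of complexes II, III and V 6 and 8 of 13 lower, and complex IV assembly 10 and 11 of 23 lower and 6 and 7 higher, with Higd1a at 1.56 and 1.63. The stress response list had 8 and 9 of 14 lower, with the chaperonin Hspd1 at -1.10 and -1.18. The tricarboxylic acid cycle had 8 and 10 of 14 lower, biogenesis regulators 9 and 11 of 18, coenzyme Q synthesis 5 and 7 of 12 and other respiratory chain genes 7 of 12 in each. For these lists, the stress response and assembly of complexes II, III and V, only the genes that fell are given. Fibroblast markers summed to 7570 to 8840 CPM at 16 h and 9470 to 10000 at 28 h in control cells, and cardiomyocyte markers to 885 to 932 and 1140 to 1190. The fibroblast sum was mostly Vim (mean 6284 CPM in HL-1), and the cardiomyocyte sum mostly Des and Gja1 (524.4 and 466.4 CPM). The part of these markers in the changes was not tested.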

How the data were processed

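RNA was extracted with TRIzol and libraries were made with the NEBNext Ultra II RNA kit, per the labels' protocols. The submitters' processing notes name FastQC 0.11.8, STAR and the builds mm10 and GRCm38. Neither the counter, its strand setting and its treatment of reads with several places to map, nor the release of the annotation, is given in the sources used here. The deposited values are whole-number read counts per gene, not normalized, in 1 table per line (27843 gene rows for AML12, 55414 for HL-1). The HL-1 table names its CM columns DEX. Every sample column was mapped by its name, and 0 were left unmapped.

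Members were joined across the tables by Ensembl ID. Counts were fitted with edgeR 4.0.16 in R 4.3.3 (limma 3.58.1), 1 model of 4 group means per line, with TMM scaling, filterByExpr, glmQLFit and glmQLFTest. Benjamini-Hochberg adjustment ran over all genes tested. CPM used TMM-scaled library sizes, and per-kilobase levels used union exon lengths of GENCODE (GRCm38). Sharing between genes was measured with 50-base words. The script was tested on simulated data. Alternatives were RLE size factors, total counts, library sizes without mitochondrial genes, DESeq2 1.42.0, limma-voom, no filter on low counts, the replicate block, only the compared groups, and each library left out.

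Named genes were the mitochondrial members, complex IV isoforms, up to 5 called members per complex and comparison with the largest change, and up to 3 genes per list with the smallest p. Genes outside this rule are named as such. The members and lists were chosen with earlier results of these data known, and the lists of mitochondrial ribosomal proteins, mitochondrial rRNAs and nuclear copies were added after values were seen. P-values measure only the spread between these libraries.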

Additional observations from a re-analysis of the deposited data

Results flagged for a closer look

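In 159 groups of 4 libraries examined for a library far from the others, of which chance would mark about 1 in 20, 9 were marked. AML12 DEX 17 h replicate 2 accounted for 3 of them. Its nuclear members took 0.7065% of counts, against 0.8447 to 0.8671% in the other libraries, mt-Nd2 stood at 1567 CPM against 914.2 to 1009, and mt-Cytb at 3895 CPM against 2393 to 2526.

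The others were spread over both lines. HL-1 CM 28 h replicate 4 had the lowest mitochondrial share of its group, 2.247% of counts against 2.401 to 2.429%. mt-Co2 was highest in HL-1 CM 28 h replicate 1 at 46.73 CPM, against 42.93 to 43.24, and mt-Atp6 in HL-1 CM 16 h replicate 3 at 54.98 CPM, against 46.19 to 47.54. Uqcrc1 was lowest in AML12 DEX 25 h replicate 2 at 48.49 CPM, against 57.26 to 59.07. Cox7a1 was highest in HL-1 control 28 h replicate 2 at 2.504 CPM, against 2.032 to 2.079, and Atp5g1 lowest in AML12 control 17 h replicate 4 at 33.43 CPM, against 37.65 to 38.49.

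The DEX effect in AML12 differed between 25 h and 17 h by edgeR's test of the difference for Cox4i2 (-1.911 on the log2 scale), Uqcrc1 (-0.9775), Ndufv3 (-0.2068), Ndufs4 (0.2727) and Ndufa6 (0.1595). Of all genes tested, 16.2% were called in this difference. The call was lost in 14 of the alternatives tried for Ndufa6, 12 for Uqcrc1, 9 for Ndufv3 and 3 for Cox4i2.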

How the results depend on the processing

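Of 122 calls for named genes, 94 held under every alternative. Leaving out AML12 DEX 17 h replicate 2 reversed 3 values: mt-Co1 (-0.1566) and mt-Cytb (-0.1835) in DEX against control at 17 h, and Cox7a2 (-0.1983) with time in DEX cells. Leaving out other libraries, these reached 0.07448, 0.07859 and 0.1372. It also moved the median of mitochondrial members at 17 h to -0.2327. Without HL-1 CM 16 h replicate 3 that median for CM at 16 h was -0.09379. The cause of these and the following changes was not tested.

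Counts of members called also changed with single settings. For DEX at 17 h, 5 nuclear members were higher with total counts only, 2 lower with only the compared groups, and 1 mitochondrial member lower without the low-count filter. For DEX at 25 h, 6 nuclear members were higher and 2 lower without the filter, 11 higher with only the compared groups, and 1 mitochondrial member lower in each. For the difference of DEX effects, 5 were higher without the filter and 1 lower in DESeq2. With time in AML12 control cells, 1 nuclear member was higher with total counts only and 4 mitochondrial members lower in DESeq2, and in DEX cells 3 mitochondrial members were lower in DESeq2 and 3 with only the compared groups. For CM at 16 h, 2 mitochondrial members were lower without the filter. For CM at 28 h, 2 nuclear and 2 mitochondrial members were lower without the filter, 1 and 1 with only the compared groups, and 1 mitochondrial member with the replicate block. For the difference of CM effects, 3 mitochondrial members were lower without the filter. With time in HL-1 CM cells, 7 nuclear members were higher without the filter, and 2, 2 and 1 mitochondrial members were higher without the filter, with only the compared groups and with the replicate block.

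Leaving out 1 library at a time gave 6 to 34 nuclear members higher, 3 to 5 lower and 0 to 7 mitochondrial members lower for DEX at 17 h. At 25 h it gave 0 to 2 nuclear members higher and 0 to 1 mitochondrial members lower. The difference of DEX effects had 1 to 3 nuclear members higher and 1 to 6 lower, and 0 to 2 mitochondrial members higher. With time, AML12 control cells had 2 to 3 nuclear members higher, 29 to 34 lower and 4 to 7 mitochondrial members lower, and DEX cells 4 to 6, 31 to 55 and 3 to 7. CM at 28 h had 0 to 1 mitochondrial members lower. HL-1 control cells had 2 to 4 mitochondrial members lower with time, and HL-1 CM cells 0 to 2 higher. Same-numbered libraries did not deviate together (correlations from -0.119 to 0.121, 11 of 32 best with their own number), so the replicate numbers name libraries and do not pair them.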
